A study of Mus musculus with 4 samples.

Results

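The S100 genes encode small calcium-binding proteins with a pair of EF-hand loops, most of which work as dimers. Inside the cell they bind partners such as annexins and myosin when calcium rises, and some are released and act on receptors of neighbouring cells. Several are known from tumor spread, among them *S100a4*, first described as a metastasis gene of mouse mammary tumor cells. Here 10 S100 genes were followed in 4T1 cells sorted for mitochondrial membrane potential (MMP), and 9 of them were among the 20197 genes of the table. They are a list drawn from the family, set with earlier results of these data known, and 3 other measured S100 genes lie outside it. The expression of *S100a9* was not analysed here, and its sequence is counted with those of the other genes.

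4T1 is a mouse mammary carcinoma line, wild type in its labels and grown in culture. The stain was MitoSpy Red at 20 nM, a dye drawn into mitochondria by their membrane potential. The 5% of cells with the highest and the 5% with the lowest staining were taken as high MMP and low MMP cells, with no other treatment. There were 2 libraries per group, each from RNA of 100000 sorted cells (200 ng into the library). The libraries of a group came from independent experiments by the study's account, and the labels do not say which high and low MMP libraries belong to the same one.

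Values are normalized reads, on a scale where every library sums to 20000000. Whole reads recovered from them gave depths of 22591970 to 26395015 reads per library. The precision of low genes is limited by counting as well as by the replicates, and that of abundant ones by the replicates. Mammary epithelial markers were abundant, as *Epcam* had 3647 to 4619 normalized reads and *Krt8* 13147 to 19554, and 6 of the 7 on the list were measured. Defining leukocyte markers were near 0, with at most 2 reads of *Ptprc*, the pan-leukocyte gene, and of *Ly6g*, the neutrophil gene, in any library. Each difference is that of high from low MMP cells in mean log2(value + 1), positive where high MMP is higher, which understates the change of low genes.

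The second calcium loop shows how the members differ as calcium sensors. The lines that follow give its coding sequence in the GENCODE M21 transcripts (build GRCm38), 5′ to 3′, with capitals for the codons of the 4 loop positions whose side chains usually hold the ion. They are shown because *S100a10*, one of the 3 most abundant members, and *S100a14* depart from the usual loop.
S100a4 (chr3:90605785-90605820, + strand): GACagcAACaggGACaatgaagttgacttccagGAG
S100a6 (chr3:90614233-90614268, + strand): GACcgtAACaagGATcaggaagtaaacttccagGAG
S100a8 (chr3:90669872-90669907, + strand): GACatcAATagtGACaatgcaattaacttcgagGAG
S100a11 (chr3:93526037-93526072, + strand): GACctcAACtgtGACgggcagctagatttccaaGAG
S100a10 (chr3:93564288-93564323, + strand): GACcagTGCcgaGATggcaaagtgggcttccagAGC
S100a14 (chr3:90528114-90528149, + strand): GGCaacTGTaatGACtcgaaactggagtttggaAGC
Read as a protein, the loop had the usual residues at 4 of 4 positions in 8 of the 10 genes, at 2 in *S100a10* and at 1 in *S100a14*. *S100a10* is known as the member that does not need calcium to bind its partner. The encoded proteins were 89 to 160 residues long in the longest models, and pairs of them were 21.6% to 49.4% identical, with *S100a4* and *S100a6* the closest pair.

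All 10 genes lie on chromosome 3, between 90511034 and 93564643 (3.05 Mb). Most lie together at the start of that stretch, and *S100a11* (chr3:93520488-93526287) and *S100a10* (chr3:93555080-93564643) stand at its far end, beyond the genes of skin barrier formation. Sequence upstream of the start (RefSeq, GRCm38.p6, the 250 bases before the start) was at hand for 8 of the 10, and not for *S100a10* or *S100a14*. Of these genes 4 are shown, as the most abundant ones with a window, the metastasis gene and the gene with the largest difference between the groups. Capitals mark matches to the AP-1 motif (TGANTCA), the TATA box (TATAAA), the CCAAT box (CCAAT), the GC box (GGGCGG) and the STAT motif (TTCNNNGAA), searched on both strands.
S100a4 (chr3:90603520-90603769, + strand): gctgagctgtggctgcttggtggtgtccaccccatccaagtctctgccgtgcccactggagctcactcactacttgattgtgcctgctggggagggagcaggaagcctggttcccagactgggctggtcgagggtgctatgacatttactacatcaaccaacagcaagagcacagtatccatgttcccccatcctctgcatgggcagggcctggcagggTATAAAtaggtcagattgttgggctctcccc
S100a8 (chr3:90668821-90669070, + strand): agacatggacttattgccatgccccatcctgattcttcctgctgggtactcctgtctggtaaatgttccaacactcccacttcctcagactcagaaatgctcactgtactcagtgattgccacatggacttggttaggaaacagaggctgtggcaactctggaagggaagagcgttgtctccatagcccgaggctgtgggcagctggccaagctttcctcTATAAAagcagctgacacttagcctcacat
S100a11 (chr3:93520246-93520495, + strand): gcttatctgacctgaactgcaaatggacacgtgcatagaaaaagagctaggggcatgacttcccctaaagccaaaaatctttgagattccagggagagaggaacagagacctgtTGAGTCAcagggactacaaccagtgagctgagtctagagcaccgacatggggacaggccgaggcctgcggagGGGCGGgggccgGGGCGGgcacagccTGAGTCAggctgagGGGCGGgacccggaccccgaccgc
S100a6 (chr3:90612644-90612893, + strand): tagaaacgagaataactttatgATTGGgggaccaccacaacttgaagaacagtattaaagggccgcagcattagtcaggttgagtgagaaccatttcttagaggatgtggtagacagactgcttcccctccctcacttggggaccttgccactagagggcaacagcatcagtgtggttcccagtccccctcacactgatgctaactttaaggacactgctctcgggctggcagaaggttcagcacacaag
A TATA box stood 31 bases before the start of *S100a4* and 30 bases before that of *S100a8*, and in no other window of the members. In the windows of all genes it was found in 12.4%. The *S100a11* window held 2 AP-1 matches and 3 GC boxes and no TATA box. AP-1 matches were in 6.75% of all windows and GC boxes in 32.7%, and among the members in 2 and 3 genes. A CCAAT match was found in *S100a6* only among the members (33.8% of all windows), and a STAT match in 0 of them (7.02% of all windows). A match is a run of letters and not a measured site.

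S100 expression in 4T1 cells was carried by 3 genes. *S100a6*, *S100a10* and *S100a11* together held 98.7% to 98.9% of all reads of the 9 genes in each library, and *S100a6* alone 61.2% to 68.0%. The 9 genes together made up 0.250% of the library in high MMP 1 (95% interval by Wilson's method 0.248% to 0.252%), 0.171% in high MMP 2 (0.169% to 0.173%), 0.182% in low MMP 1 (0.180% to 0.184%) and 0.209% in low MMP 2 (0.207% to 0.211%). High MMP libraries thus stood at the top and the bottom, with both low MMP libraries between them. These intervals cover counting error only.

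Per kilobase of exon, the order of the mean levels was *S100a6* (32363 normalized reads per kb), *S100a11* (12829), *S100a10* (9217), *S100a1* (310), *S100a4* (196), *S100a13* (166), *S100a8* (27.5), *S100a14* (18.6) and *S100a16* (4.57). By this measure *S100a6* ranked 11 among all genes of the table, *S100a11* 73 and *S100a10* 107. Neighbours in this order whose libraries overlapped were *S100a11* with *S100a10*, *S100a4* with *S100a13* and *S100a8* with *S100a14*. The other neighbours in the order were apart in all 4 libraries.

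**Figure D1:**
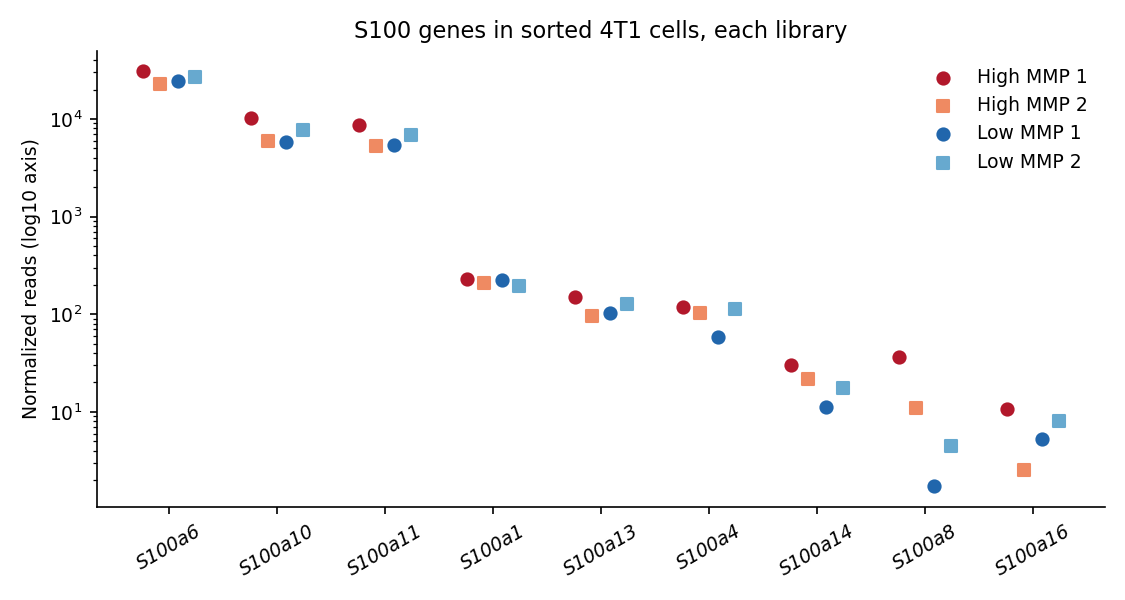
Normalized reads (log10 axis) of 9 S100 genes in each of the 4 libraries, ordered by mean level, with 1 point per library. *S100a6*, *S100a10* and *S100a11* lie at 5319 or above, and the other genes lie at 228 or below.

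To ask whether cells with high and low MMP differ in S100 expression, each gene was compared between the groups in a limma fit over the whole table. No member passed an adjusted p of 0.05, and 0% of all 20197 genes did. At an unadjusted p under 0.05 there was 1 member of 9, *S100a8*, against 9.96% of all genes. The difference was above 0 for 8 members and below 0 for *S100a16*, with a median of 0.16, beside -0.04 over all genes. Some of these directions turned when 1 library was left out: without high MMP 1 the median was -0.18 and 5 of the 9 members changed sign, and without low MMP 1 it was -0.0032 and 4 changed sign. *S100a16* was above 0 in edgeR with no block (0.06) and in DESeq2 (0.05). Both high MMP libraries were above both low MMP libraries for 2 members, *S100a8* and *S100a14*, and for 13.5% of all genes. No member had both high MMP libraries below both low MMP libraries, against 24.5% of all genes.

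The recovered reads gave similar counts with no block. In edgeR's quasi-likelihood test 0 members and 0% of all genes had an adjusted p under 0.05, and 1 member and 1423 genes had an unadjusted p under 0.05. DESeq2 called 0 members and 0.985% of the genes to which it gave an adjusted p, and gave none to *S100a8* or *S100a16*. With the labelled replicate number as a block, edgeR called 1 member, *S100a8*, and 0.525% of all genes.

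**Figure D2:**
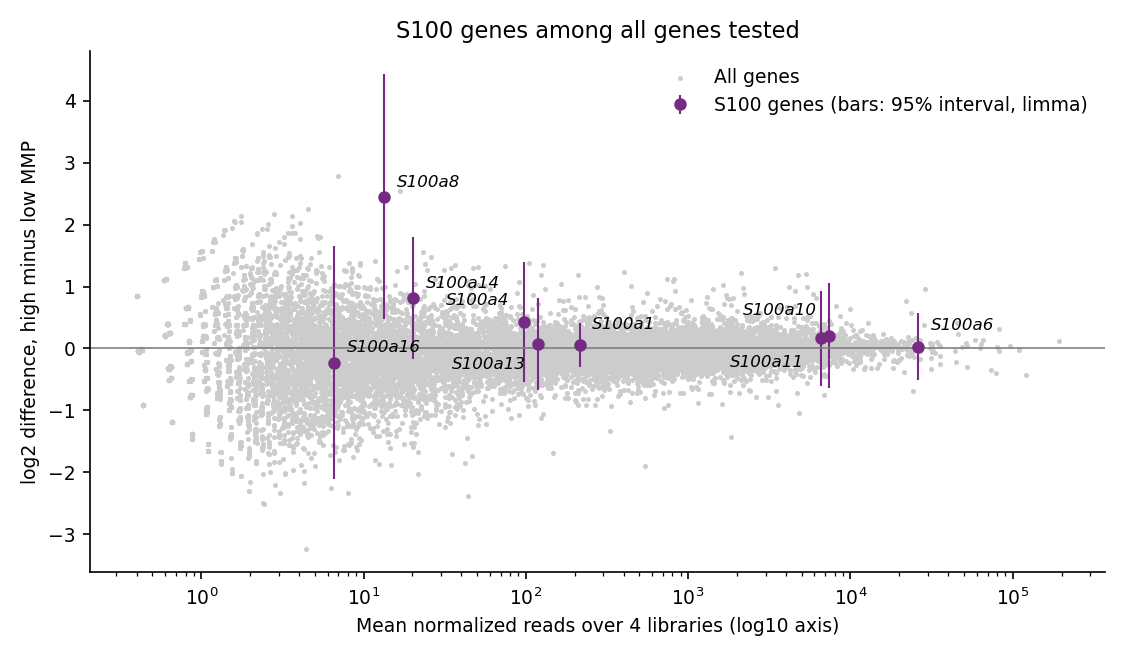
log2 difference between high and low MMP (y axis) against the mean normalized reads over 4 libraries (x axis, log10) for all 20197 genes (grey) and the 9 S100 genes (purple, bars are limma 95% intervals). *S100a8* lies at 2.45, and the intervals of the other 8 genes include 0.

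*S100a8* encodes one chain of calprotectin, a calcium-binding and metal-binding complex best known from neutrophils, whose other chain is the product of *S100a9*. The gene (chr3:90668978-90670035, + strand) had 36.4 normalized reads in high MMP 1 and 10.9 in high MMP 2, against 1.74 in low MMP 1 and 4.43 in low MMP 2. Both high MMP libraries were above both low ones, but the high MMP libraries were also far apart from each other. These values rest on 48, 13, 2 and 5 reads in the same order. The log2 difference was 2.45 (SE 0.73, 95% interval 0.47 to 4.43), with an unadjusted limma p of 0.0259 and an adjusted p of 0.472. On the reads pooled by group, 61 against 7, the ratio of high to low MMP was 7.89 (exact 95% interval 3.61 to 20.4, counting error only).

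The difference of *S100a8* was 1.62 without high MMP 1 and 3.28 without high MMP 2, and 1.26 with a pseudocount of 10. Of 13 neutrophil and myeloid markers 5 were measured, and their summed level was 377 to 392 in cells of high and 375 to 387 in cells of low MMP. Nearly all of that sum was *Cd14* and *Cd68*. *Cd14* had 320 and 236 in high and 224 and 284 in low MMP cells, and *Cd68* 59.9 and 139 against 149 and 91.2. Across the libraries they moved in opposite directions, so the steady sum does not mean that either marker was steady. *Ly6g* had 0 reads in high MMP 1, the library with the most *S100a8*, and *Ptprc* had 1. *Ltf*, a neutrophil granule gene that mammary epithelium can also express, had 15 reads in high MMP 1, 0 in high MMP 2, 2 in low MMP 1 and 10 in low MMP 2. In bulk RNA, more cells with a transcript and more transcript per cell cannot be told apart.

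*S100a14* (chr3:90526856-90528837), a member found in epithelia, had 30.3 and 21.8 normalized reads in high MMP 1 and 2, and 11.3 and 17.7 in low MMP 1 and 2. The groups did not overlap, but the gap between them was smaller than the spread within each. The log2 difference was 0.81 (SE 0.36, 95% interval -0.17 to 1.79; limma adjusted p 0.588) on 13 to 40 reads per library, and it was 0.51 without low MMP 1. Pooled by group, 66 against 33 reads gave a ratio of 1.81 (exact 95% interval 1.18 to 2.84, counting error only).

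*S100a4* (chr3:90603771-90606045) is the metastasis-associated member, also called fibroblast-specific protein, which binds nonmuscle myosin. Its level was 117 normalized reads in high MMP 1, 102 in high MMP 2, 58.4 in low MMP 1 and 112 in low MMP 2. Low MMP 1 stood apart below the rest, and low MMP 2 lay between the high MMP libraries. The log2 difference was 0.43 (SE 0.36, 95% interval -0.54 to 1.40; limma adjusted p 0.795), and it was -0.04 without low MMP 1. Of 5 other fibroblast markers 3 were measured, and their sum, nearly all *Pdgfra*, was 334 and 374 in high and 548 and 604 in low MMP cells. Of the exon bases of *S100a4*, 51.7% are shared on the same strand with the annotated gene *Gm42674*, and the counting rule for such reads is not stated, so its level is uncertain.

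The members that dominate S100 expression did not separate the groups. *S100a6* (chr3:90612882-90624181), or calcyclin, a growth-associated member that binds the ubiquitin ligase adaptor CacyBP, had 30609.6 normalized reads in high MMP 1, 22555 in high MMP 2, 24729 in low MMP 1 and 26833 in low MMP 2. Its log2 difference was 0.03 (SE 0.20, 95% interval -0.51 to 0.57; limma adjusted p 0.994). *S100a10*, the partner of annexin A2 at the plasma membrane, had 10171 and 5889 in high MMP 1 and 2, and 5853 and 7656 in low MMP 1 and 2. High MMP 1 was the highest library and high MMP 2 lay beside low MMP 1 at the bottom. The log2 difference was 0.21 (SE 0.31, 95% interval -0.64 to 1.06; limma adjusted p 0.914), while 0.79 lay between the high MMP libraries. *S100a11*, a partner of annexins A1 and A2 in membrane repair, had 8686 and 5319 in high and 5405 and 6812 in low MMP cells. It differed by 0.16 (SE 0.28, 95% interval -0.60 to 0.93; limma adjusted p 0.931), with 0.71 between the high MMP libraries. Without high MMP 1, the difference of these 3 genes was -0.19, -0.18 and -0.19 in the order named.

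The remaining members were far below *S100a6*, *S100a10* and *S100a11* and overlapped between the groups. *S100a1* (chr3:90511034-90514392, - strand), known from heart and skeletal muscle, had the smallest range of the 9 over the libraries (1.16-fold), with 228 and 209 normalized reads in high and 226 and 197 in low MMP cells, and a difference of 0.05 (SE 0.13, 95% interval -0.30 to 0.41). *S100a13*, which takes part in the release of fibroblast growth factor 1, starts next to *S100a1* on the opposite strand (chr3:90514435-90524581). It had 150 and 96.2 in high and 103 and 127 in low MMP cells, and differed by 0.07 (SE 0.27, 95% interval -0.67 to 0.82). The neighbours thus did not share the order of the libraries: high MMP 2 was the lowest for *S100a13*, and low MMP 2 the lowest for *S100a1*. *S100a16* (chr3:90537254-90543151) had 14 and 3 reads in high and 6 and 9 reads in low MMP cells. Pooled, this gave a ratio of 1.03 (exact 95% interval 0.482 to 2.21, counting error only), and with so few reads a small or moderate difference could not be detected.

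The library high MMP 1 was at the top throughout, while the order of the others varied among the members. High MMP 1 was the highest library for 9 of 9 members, and for 25.1% of all genes. Low MMP 2 was above low MMP 1 for 8 of 9, and high MMP 2 was below low MMP 2 for 6 of 9, against 53.3% and 56.6% of all genes. The median over the members was 0.64 between the high MMP libraries and 0.39 between the low MMP libraries (2 minus 1), both larger than the median group difference of 0.16. For 6 of 9 members the gap between the high MMP libraries was larger than the difference between the groups, as it was for 63.2% of all genes. Among the 79 cytosolic ribosomal protein genes, a set of short and abundant transcripts, high MMP 1 was likewise the highest library for 72. Their medians were 0.31 between the high and 0.05 between the low MMP libraries, against 0.64 and 0.39 in the members. Low MMP 2 was above low MMP 1 for 63 of the 79. High MMP 1 was first and low MMP 2 second for 60 of the 79 and for 6 of 9 members, against 12.9% of all genes. The ribosomal protein genes thus shared this order of libraries, with a smaller step between the low MMP libraries. Any link of the ribosomal protein genes to the S100 pattern was not tested.

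**Figure D3:**
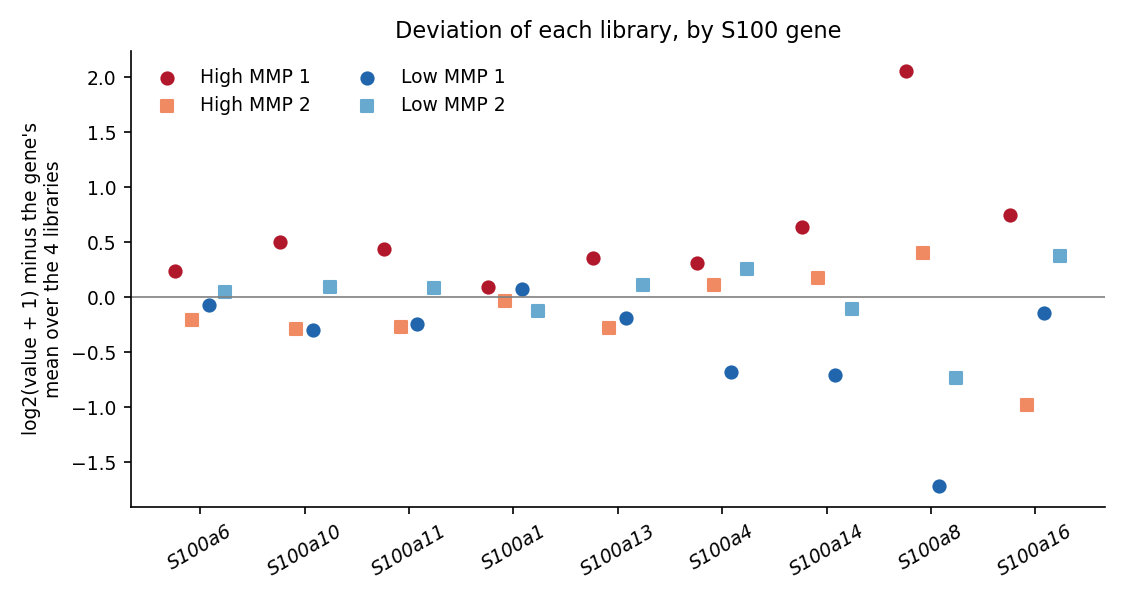
Deviation of each library from the gene's mean over 4 libraries, in log2(value + 1), for 9 S100 genes ordered by level. High MMP 1 (dark red circles) is the highest point for every gene, while high MMP 2 (orange squares) lies below low MMP 2 (light blue squares) for 6 of them.

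Ratios of members within a library do not depend on a scaling by 1 factor per library. *S100a10* and *S100a11* kept nearly the same ratio, 1.17 and 1.11 in high MMP 1 and 2 and 1.08 and 1.12 in low MMP 1 and 2. The ratio of *S100a10* to *S100a6* varied more, with 0.332, 0.261, 0.237 and 0.285 in the same order. Against its partner gene *Anxa2*, *S100a10* had ratios of 0.561, 0.346, 0.359 and 0.476, a range of 1.62-fold. *Anxa2* itself ranged over 1.13-fold, and *S100a10* over 1.74-fold. *S100a4* against *Myh9*, the gene of its myosin partner, had 0.0051, 0.0040, 0.0027 and 0.0054, a range of 1.98-fold. *S100a11* and *Anxa1*, which encodes one of its partners, had ratios of 0.534, 0.524, 0.592 and 0.571, and *S100a6* and *Cacybp* 5.73, 5.25, 5.47 and 5.57. A ratio of *S100a11* to *Anxa2*, which encodes another of its partners, was not formed. *S100a11* ranged over 1.63-fold and *Anxa1* over 1.78-fold, so both varied while their ratio stayed within 1.13-fold.

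Genes for binding partners and receptors of S100 proteins were then compared. Of 30 on the list 24 were measured, and 0 passed an adjusted p of 0.05 or an unadjusted p of 0.05 in limma. Their differences ran from -0.49 to 0.30 with a median of 0.02. Both high MMP libraries were above both low ones for 4 of the 24 and below for 3, beside 13.5% and 24.5% of all genes. Among the annexins, *Anxa2* had 18144 and 17021 in high and 16292 and 16084 in low MMP cells (difference 0.12, SE 0.11; limma adjusted p 0.822), so the groups did not overlap. *Anxa1* differed by 0.30 (SE 0.29) and *Anxa11*, a partner of the *S100a6* protein, by 0.01 (SE 0.18), with overlapping libraries.

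*Myh9*, the nonmuscle myosin heavy chain bound by the *S100a4* protein, had 22920.2 and 25368 in high and 21514 and 20937 in low MMP cells (difference 0.18, SE 0.13; limma adjusted p 0.749). *Ahnak*, the scaffold bound by annexin A2 with the *S100a10* protein, had 13280 and 19631 in high and 20024 and 19977 in low MMP cells, and differed by -0.31 (SE 0.22; limma adjusted p 0.757), with high MMP 1 apart from the other libraries. *Cacybp* differed by 0.04 (SE 0.14). Of the receptors, *Tlr4*, through which extracellular calprotectin can signal, had 349 and 367 in high and 404 and 380 in low MMP cells (difference -0.13, SE 0.09; limma adjusted p 0.760). *Ager*, the receptor for advanced glycation end products, had 10 to 20 reads per library and differed by -0.49 (SE 0.41). *Bsg*, another receptor of calprotectin, differed by 0.00 (SE 0.12, 95% interval -0.33 to 0.34). The others of smallest p were *Plaur*, the urokinase receptor (0.26, SE 0.15), *Stub1*, a ubiquitin ligase (-0.13, SE 0.08), and *Il1a*, an inflammatory cytokine (0.27, SE 0.20), with adjusted limma p-values of 0.690 to 0.765.

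Of the S100 genes outside the list, 3 were measured, all in the same stretch of chromosome 3. *S100a7a*, a mouse relative of psoriasin that lies just before *S100a8*, had 114 and 84.5 normalized reads in high and 62.8 and 60.2 in low MMP cells. The groups did not overlap, and the difference was 0.67 (SE 0.21, 95% interval 0.09 to 1.25; unadjusted limma p 0.0321, adjusted p 0.472). *S100a3* had 50.8 and 25.9 in high and 24.4 and 50.5 in low MMP cells, and differed by 0.05 (SE 0.52). *S100a2* had 3 reads in high MMP 1, 3 in low MMP 2 and 0 in the other libraries, so no fold is given.

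Between the outermost members the annotation holds 111 other genes, many of them skin barrier genes, and 21 of these were measured. Of the 8 with a mean of at least 10, 2 had both high MMP libraries above both low ones and 1 had both below, beside 1848 and 3059 of the 12902 such genes in the table. Those of smallest p were *S100a7a*, *Gm9774* (18.9 and 20.9 in high, 30.5 and 33.6 in low MMP cells; difference -0.66, SE 0.24, limma adjusted p 0.496) and *Pglyrp3*, which encodes a peptidoglycan recognition protein (18.9 and 11.7 against 9.59 and 9.74; difference 0.58, SE 0.36, limma adjusted p 0.711). Of the 21 genes, 0 passed an adjusted p of 0.05 in limma.

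**Figure D4:**
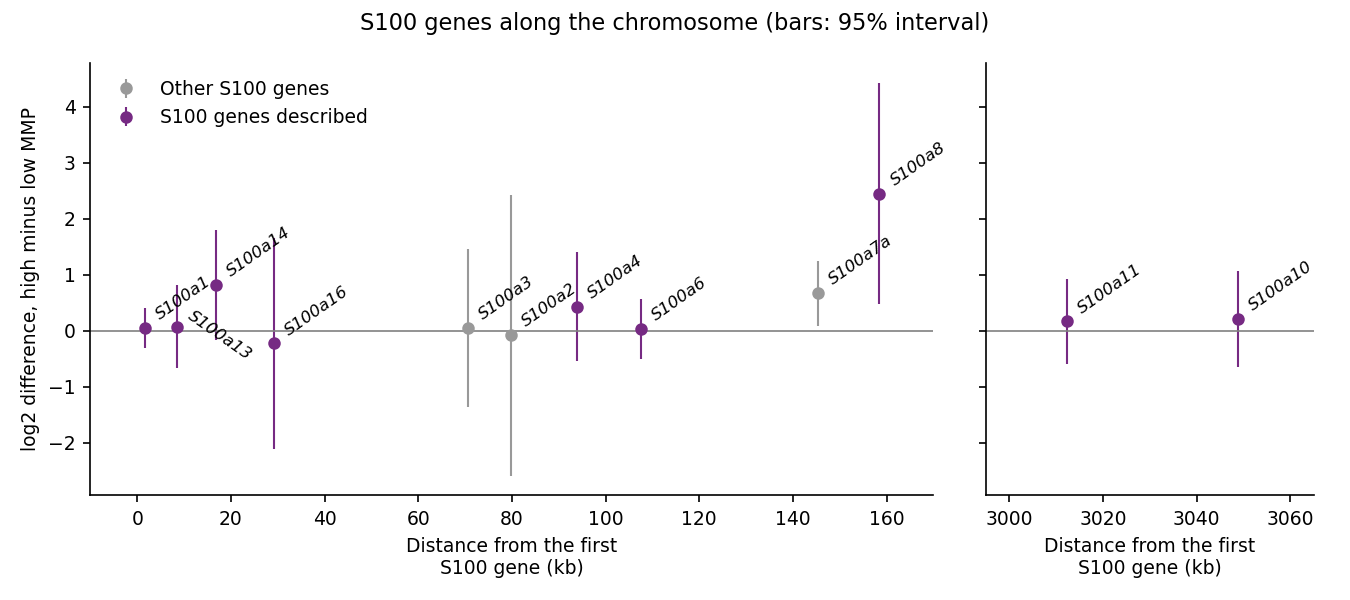
log2 difference between high and low MMP (y axis, bars are limma 95% intervals) of 9 S100 genes (purple) and 3 others of the family (grey) against the distance in kb from the first of them, *S100a1*, in 2 panels at the same scale with the stretch between left out. *S100a8* and *S100a7a*, which lie side by side in the plot, have intervals above 0, and the other 10 intervals include 0.

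As a comparison outside the family, *Calm2* and *Calm3* encode calmodulin, the general EF-hand calcium sensor of the cell. *Calm2* had 10499.7 and 9135 normalized reads in high and 7493 and 8049 in low MMP cells, and differed by 0.33 (SE 0.12; unadjusted limma p 0.0433, adjusted p 0.477) with no overlap. *Calm3* differed by -0.10 (SE 0.13), with overlapping libraries. Over 8 EF-hand genes outside the family, 0 passed an adjusted p of 0.05 in limma, 1 had an unadjusted p under 0.05, and the differences ran from -0.12 to 0.33. In the list of 10 regulators and tumor cell markers, such as *Vim*, *Cdh1* and *Stat3*, 0 passed as well and 1 had an unadjusted p under 0.05 (*Cdh1*, -0.34), with differences of -0.38 to 0.20.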

How the data were processed

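RNA-seq of 4 libraries of sorted 4T1 cells was analysed. The authors aligned reads of a stranded mRNA preparation with STAR to the mouse transcriptome (GRCm38/mm10), made counts per gene, scaled each library by its total and dropped genes seen in too few samples (every gene kept is above 0 in at least 2 libraries). HTSeq also appears in the submitters' processing notes. Versions, the annotation release and the treatment of reads shared by several genes or strands are not given in the sources used here. The deposited signal per gene sums to 20000000 in each library, and all 4 columns were used. Dividing by the smallest value above 0 gave whole reads for 100.0% of values (tolerance 0.05 of a read). These were used only for the count-based alternatives.

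Identifiers were matched to GENCODE M21, with a match for 19993 of 20197. Groups and replicate numbers come from the sample titles. log2(value + 1) was tested with limma 3.58.1 (R 4.3.3; eBayes with a trend, no block, all 4 libraries), adjusted by Benjamini-Hochberg over all 20197 genes. edgeR 4.0.16 (quasi-likelihood) and DESeq2 1.42.0 were run on the recovered reads, without a filter on low counts other than that of the deposited table. The code was tested on simulated counts. Replicates differed beyond sampling noise (chi-square per gene 43.2 for high and 9.08 for low MMP), so each counts as 1 sample. Members, lists, motifs and tests were chosen with earlier results of these data known. Genes named are all members, other S100 genes, *Calm2* and *Calm3*, fixed partners and, by smallest p with a mean of at least 10, 3 further partners and 3 genes between the members. *Epcam*, *Krt8*, the myeloid markers and the regulators named were picked from fixed lists, and *Gm42674* for its overlap. A further gene of the rule is not reported here.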

Additional observations from a re-analysis of the deposited data

How the results depend on the processing

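With pseudocounts of 0.5 and 10, median-of-ratios scaling (factors 0.982 to 1.02), quantile normalization, a mean of at least 10 (which leaves out *S100a16*), no variance trend and each library left out, limma called 0 members. The count of members whose groups do not overlap was 2 under both scalings, and a pseudocount or this filter could not change it. With high MMP 2 left out the median difference moved to 0.53, by more than the spread between replicates (pooled SD of the members' median level 0.36). With high MMP 1 left out it moved almost as far in the other direction, to -0.18, just within that spread. Its range over the libraries left out was -0.18 to 0.53.

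Deviations of same-numbered libraries had a correlation of -0.421 over the 12902 genes whose mean reached 10. With 2 libraries per group this rests on a single contrast in each, so it cannot show whether same-numbered libraries share an experiment. The labels do not say so either, and the main fit took no pairs. With the replicate block limma called 0 members, 0 partner genes and 0 genes, and edgeR 1 member (*S100a8*, log2 difference 2.80, adjusted p 0.00225), 0 partner genes and 106 genes. DESeq2 called 0 members and 118 genes. With crossed numbers as the block, added after seeing the data, edgeR called 1 member, 0 partner genes and 733 genes, and limma 0.

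Directions turned for members other than *S100a8* and *S100a14*, and the cause was not tested beyond the library left out. *S100a6* was -0.0189 after quantile normalization. *S100a16* was 0.0604 in edgeR with no block and 0.0469 in DESeq2. Leaving out a library gave -0.0475 to 0.15 for *S100a1*, -0.0377 to 0.90 for *S100a4*, -0.19 to 0.25 for *S100a6*, -0.18 to 0.60 for *S100a10*, -0.19 to 0.52 for *S100a11*, -0.24 to 0.39 for *S100a13*, 0.51 to 1.11 for *S100a14* and -1.09 to 0.64 for *S100a16*. Counting limits *S100a8*, *S100a14* and *S100a16*, which have 2 to 48 reads per library, but it is not the only limit. The high MMP libraries also lay far apart for *S100a8* (48 and 13 reads) and *S100a16* (14 and 3 reads).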
